A study of Mus musculus with 4 samples.

Results

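The glutathione S-transferases of mouse liver are described here through 10 genes: Gsta2, Gsta3 and Gsta4 of the alpha class, Gstm1, Gstm2, Gstm3 and Gstm6 of the mu class, Gstp1 of the pi class, and Gstt1 and Gstt3 of the theta class. The genes were read from every non-control probe whose gene name in the scanner files is one of these symbols, which gave 13 probes among 41174, or 10 of the 18041 genes tested. All 10 genes passed the filter on dim probes, and every one of the 13 probes was well above background on all 4 arrays in both groups. The livers came from male C57BL/6 mice on a high-fat diet, injected into the abdomen with 25 mg/kg of oligonucleotide, 2 times a week for 4 weeks. The livers labelled Plin2-ASO (mice 6, 7, 9 and 10) had received an antisense oligonucleotide against Plin2, a short nucleic acid designed to bind the transcript of perilipin 2, the coat protein of liver lipid droplets. The control livers (mice 1, 2, 4 and 5) had received a scrambled oligonucleotide. Each of 4 Agilent arrays of 2 colours held 1 liver labelled Plin2-ASO in Cy3 and 1 control liver in Cy5, and the dyes were not swapped.

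Glutathione S-transferases join the small peptide glutathione to reactive, fat-soluble compounds, so that these can be exported and excreted. The cytosolic enzymes are dimers that fall into sequence classes, and the liver holds large amounts of alpha, mu and pi class enzymes. Their genes are known in rodents as targets of the oxidative stress factor NRF2 and of receptors that sense foreign chemicals, and several differ in level between male and female mice.

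Values below are log2 ratios of the liver labelled Plin2-ASO over the control liver of the same array, so a ratio of 1 is a doubling, and log2 signals of single livers after the dyes and arrays were put on 1 scale. "Rose" and "fell" are used only of values past an adjusted p of 0.05 by limma, a linear model fitted over all genes. Plin2, the target, gave no lower value in the livers labelled with its oligonucleotide. Its single probe had log2 signals of 13.96, 13.89, 14.32 and 13.71 in the livers labelled Plin2-ASO, against 13.71, 13.73, 13.49 and 13.34 in the control livers, and its mean log2 ratio was 0.40 ± 0.15 (SE, n = 4, limma adjusted p = 0.156). The direction of every result rests on the dyes given in the labels, and every sign here would turn if those dyes had been the other way round. A dye effect shared by all arrays and a difference between the groups cannot be told apart.

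Array 3 stood apart from the others, with a mean correlation of 0.33 between its ratios and those of the other arrays across genes, against 0.51 to 0.66. On it 7.69% of spots carried an outlier mark of the scanning software, and 1.8% to 4.07% on arrays 1, 2 and 4. No member spot was saturated, and raw member signals ran from 230 to 224000. Of 9 hepatocyte marker genes on the array, all were tested and 1 fell (Alb). Of 12 stellate cell and fibroblast markers 7 fell, of 12 endothelial markers 5 fell, and of 12 macrophage markers 7 fell and 4 rose. Without array 1 or without array 2 the stellate markers that fell numbered 3 and the endothelial ones 0, and 3 and 4 macrophage markers fell. Without array 3 the stellate, endothelial, macrophage and hepatocyte markers that fell numbered 8, 11, 8 and 3, and without array 4 they numbered 6, 3, 6 and 1. Over all genes the share that fell was 1.14%, 1.21%, 20.3% and 3.43% without array 1, 2, 3 and 4, against 6.07% with all arrays. Of 7 cholangiocyte markers 2 fell, of 7 adipocyte markers 1 rose, and of 3 red blood cell markers 1 rose. The median log2 ratio of the adipocyte markers was 0.18, -0.17, 1.69 and -0.51 on arrays 1 to 4, so it was high on array 3 only. The summed signal of the stellate and fibroblast markers was 54800 to 69300 in the livers labelled Plin2-ASO and 121000 to 221000 in the control livers. That of the hepatocyte markers was 437000 to 558000 in the livers labelled Plin2-ASO and 653000 to 725000 in the control livers. Such a sum weighs the brightest markers most. By gene, the median log2 ratio was -1.20 over the stellate and fibroblast markers, but -0.04 over the hepatocyte markers, with Alb at -1.70. The part of these differences in the results below was not tested, and in whole liver fewer cells of a type and less RNA per cell cannot be told apart.

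Each probe is a strand of 60 bases, and the members' probes held 35% to 55% G and C. Because genes of a class are close copies, the probes decide which member is read. The probes of the family were laid over each other without gaps, and identity was taken over the whole overlap, of at least 20 bases. Among 377 pairs that include a member, only Gsta1 with Gsta2 reached 90%. There 27 of 28 bases were the same, shown in capitals, with the substitution T40A counted from 1 at the 5′ end of the Gsta1 probe. Shorter stretches inside an overlap and the transcripts of other genes were not searched, so which genes each probe reads was not tested. The Gsta2 probe lies at chr9:78408171-78408230 (minus strand, mouse build mm7, as are all probe positions here), and the files give no position for that of Gsta1.
Gsta1: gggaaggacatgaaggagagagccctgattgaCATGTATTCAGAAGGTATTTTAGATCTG
Gsta2: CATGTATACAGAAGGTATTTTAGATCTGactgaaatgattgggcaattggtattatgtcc

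The probe of Gstm6, the member that rose, and both probes of Gstp1, which gave different answers, are shown in full; where a gene had several probes, the brighter stood for the gene. The Gstm6 probe covers chr3:107759339-107759483 on the minus strand, and its 60 bases span 145 bases of genome, so it crosses an intron. The first Gstp1 probe, at chr19:3930292-3930351, is the brighter, and the second, at chr19:3930714-3931529, spans 816 bases of genome, both on the minus strand. Gstp1 has a near-identical neighbour, Gstp2, for which no probe was named, so signal of the pair may not be separable.
Gstm6: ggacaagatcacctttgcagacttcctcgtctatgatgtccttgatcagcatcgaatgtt
Gstp1, brighter probe: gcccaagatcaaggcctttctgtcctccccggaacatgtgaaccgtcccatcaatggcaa
Gstp1, dimmer probe: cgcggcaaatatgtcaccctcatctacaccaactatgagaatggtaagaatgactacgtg

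Of the 10 genes, 1 rose (Gstm6) and 1 fell (Gstm2), both of the mu class. Over all genes tested, 3.67% rose and 6.07% fell, so with 10 genes the counts are near that background. Gstm1 was the only other member with an unadjusted p under 0.05 by limma, which makes 3 of the 10. Over all genes tested, 4858 of 18041 had such a p, so this count is no sign particular to the members. The members' median log2 ratio was -0.29, against -0.03 over all genes tested, and 3 of the 10 means were above 0. By single probes, 3 rose (Gstm6, 1 of 2 for Gsta3 and 1 of 2 for Gstp1) and 1 fell (Gstm2), where 4.35% of all kept probes rose and 5.64% fell. Of the 12 member probes measured on all arrays, only these 4 had the livers labelled Plin2-ASO wholly to 1 side of the control livers. The calls and this separation come from the same values, so the separation is no separate support. Over all kept probes measured on all arrays, 6.75% had the livers labelled Plin2-ASO all above and 9.6% all below the control livers.

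**Figure D1:**
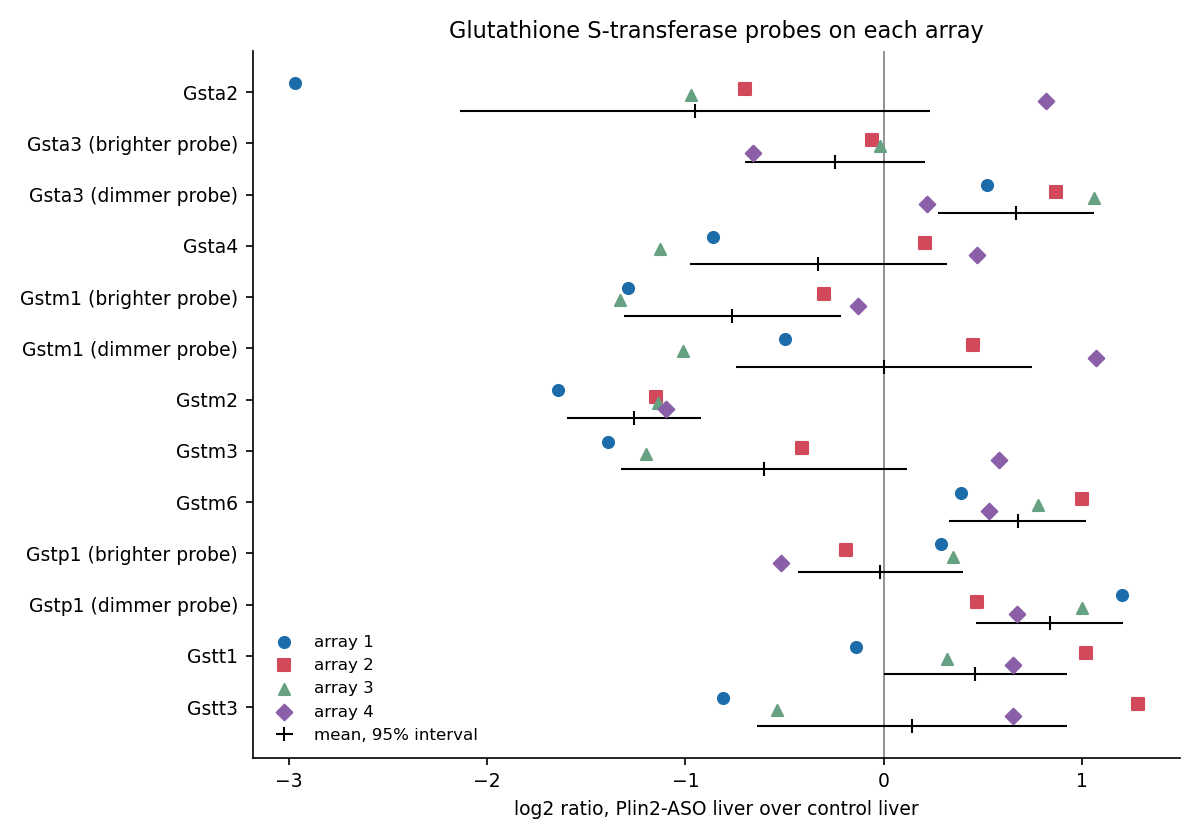
Log2 ratio of the liver labelled Plin2-ASO over the control liver (x axis) for the 13 probes of the 10 genes (y axis), with 1 symbol per array and, below the symbols, the mean with its 95% interval from limma. Gstm2 lay between -1.64 and -1.10 and Gstm6 between 0.39 and 1.00, while Gsta2 ran from -2.97 to 0.82.

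Gstm2, a mu class enzyme, fell 2.39-fold. Its log2 signals were 13.54, 13.72, 13.65 and 13.71 in the livers labelled Plin2-ASO, against 15.18, 14.87, 14.79 and 14.81 in the control livers. Every liver labelled Plin2-ASO was below every control liver, and the control liver of array 1 was the highest of all. The log2 ratios were -1.64, -1.15, -1.14 and -1.10 on arrays 1 to 4, with a mean of -1.26 ± 0.15 (SE, n = 4, 95% interval -1.60 to -0.92, limma adjusted p = 0.00444). Leaving out any 1 array kept the call, with adjusted p from 0.000624 without array 3 to 0.0381 without array 1. The probe is at chr3:107799992-107800051 on the minus strand.

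Gstm6, another mu class enzyme, rose 1.60-fold. Its log2 signals were 12.31, 12.20, 12.31 and 12.26 in the livers labelled Plin2-ASO, against 11.92, 11.20, 11.52 and 11.73 in the control livers. The livers labelled Plin2-ASO were all higher, and their SD was 0.05, against 0.31 in the control livers. The log2 ratios were 0.39, 1.00, 0.78 and 0.53, with a mean of 0.67 ± 0.15 (SE, n = 4, limma adjusted p = 0.0346). The call ended without array 1, 2 or 4 (limma adjusted p = 0.125, 0.205 and 0.0762) and under median centring or either deposited ratio, although the mean stayed between 0.57 and 0.77 in all 18 settings tried.

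Gstm1, a major mu class enzyme of mouse liver, was lower on all 4 arrays by its brighter probe but did not pass. That probe had log2 signals of 15.67, 16.17, 15.35 and 16.64 in the livers labelled Plin2-ASO, against 16.97, 16.47, 16.67 and 16.77 in the control livers, which overlap through array 4. Its log2 ratios were -1.29, -0.30, -1.33 and -0.13, with a mean of -0.76 ± 0.24 (SE, n = 4, limma adjusted p = 0.0919). The other probe, 384 bases away, had ratios of -0.50, 0.45, -1.01 and 1.07, with a mean of 0.00 ± 0.32 (SE, n = 4). Both probes ordered the arrays alike, with arrays 2 and 4 above arrays 1 and 3, but the ratio of the second was 0.32 to 1.20 above that of the first on each array.

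Gstm3, the next mu class enzyme, did not pass either. Its log2 signals were 14.24, 14.61, 13.98 and 15.65 in the livers labelled Plin2-ASO, against 15.63, 15.01, 15.18 and 15.07 in the control livers. Only the array 4 liver labelled Plin2-ASO was above its control, and it was the highest of all 8. The mean log2 ratio was -0.60 ± 0.31 (SE, n = 4, limma adjusted p = 0.264), with ratios from -1.39 to 0.58.

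The mu class genes lie side by side on chromosome 3, in the order Gstm5, Gstm7, Gstm6, Gstm3, Gstm2, Gstm1 and Gstm4 in the RefSeq annotation of assembly GRCm38.p6, used for their order only. Of these genes Gstm3 alone lies between Gstm6, which rose, and Gstm2, which fell. The other cluster genes, Gstm5, Gstm7 and Gstm4, had mean log2 ratios of -0.31 ± 0.22, 0.05 ± 0.16 and -0.05 ± 0.23 (SE, n = 4; limma adjusted p = 0.406, 0.874 and 0.918). A second, dimmer Gstm7 probe had a mean ratio of -0.39. Gstm6 and Gstm2 had ratios of opposite sign on every array.

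**Figure D2:**
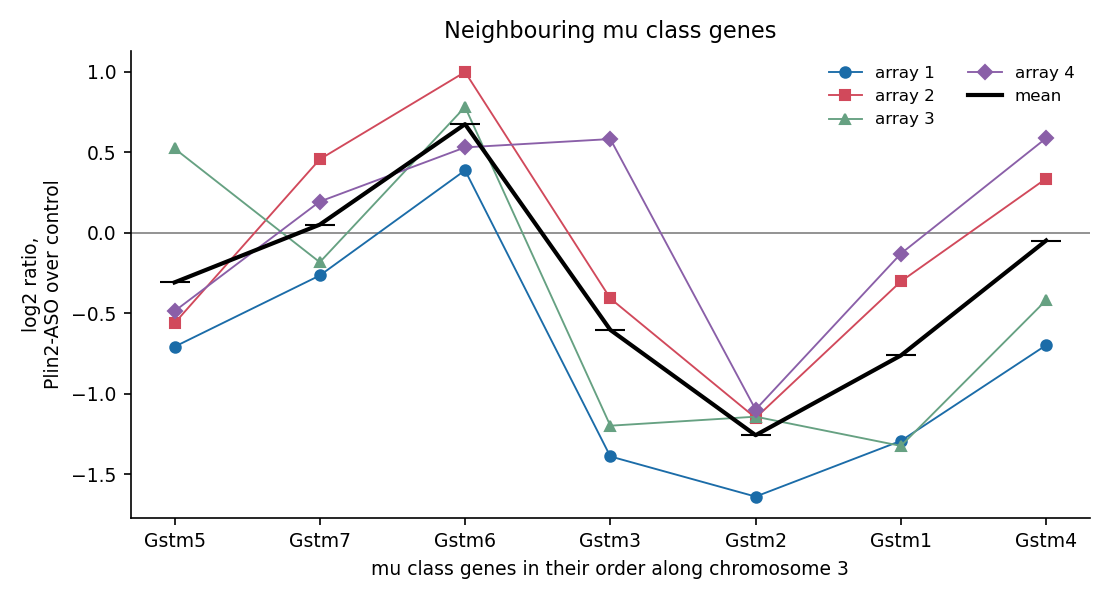
Log2 ratio of the liver labelled Plin2-ASO over the control liver (y axis) for the 7 mu class genes in their order along chromosome 3 (x axis, not to scale), with a thin line per array and a thick line for the mean. Gstm6 was above 0 and Gstm2 below 0 on all 4 arrays, and Gstm3 and Gstm1 were lower on arrays 1 and 3 than on arrays 2 and 4.

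In the alpha class, whose enzymes reduce lipid peroxides and conjugate their products, none of the 3 members passed. Gsta2 varied most. Its log2 signals were 7.92, 10.01, 9.11 and 11.28 in the livers labelled Plin2-ASO, against 10.88, 10.71, 10.08 and 10.46 in the control livers. The livers labelled Plin2-ASO had an SD of 1.42 and the control livers one of 0.35, and the groups overlapped, since the liver on array 4 was above all controls. The log2 ratios were -2.97, -0.70, -0.97 and 0.82, with a mean of -0.95 ± 0.52 (SE from limma, n = 4, limma adjusted p = 0.283). The SD of these ratios was 1.56. Without array 1 the mean was -0.28 and without array 4 it was -1.54. The Gsta2 signal of 7.92 on array 1 was well above background but dim. In the same liver a transferase probe that was well above background on no array read 7.32.

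Gsta1, which is not among the 10 members but shares the stretch shown above with Gsta2, rose 1.77-fold. Its log2 signals were 15.35, 15.72, 15.65 and 15.91 in the livers labelled Plin2-ASO, against 14.93, 14.74, 14.88 and 14.80 in the control livers, with no overlap. Its mean log2 ratio was 0.82 ± 0.16 (SE, n = 4, limma adjusted p = 0.0218), and the call ended without array 1, 2 or 4 (adjusted p = 0.0654, 0.138 and 0.0721). The Gsta1 and Gsta2 probes had ratios of different sign on arrays 1, 2 and 3.

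Gsta3 gave a different answer with each of its probes, whose starts lie 97 bases apart on chromosome 1. The brighter probe, marked as an outlier on array 1, had log2 signals of 16.78, 17.37 and 16.84 in the livers labelled Plin2-ASO, against 16.84, 17.39 and 17.50 in the control livers of arrays 2 to 4. Its mean log2 ratio was -0.25 ± 0.19 (SE, n = 3, limma adjusted p = 0.46). The dimmer probe had 15.70, 15.73, 15.76 and 15.62 in the livers labelled Plin2-ASO, against 15.18, 14.85, 14.70 and 15.39 in the control livers, with no overlap. That probe rose, with a mean of 0.67 ± 0.17 (SE, n = 4, limma adjusted p = 0.0487 over all kept probes), but not without array 1 (adjusted p = 0.182) or array 2 (0.242). It was called in 8 of 15 alternatives, and also lost with an offset of 16, median centring, a strict filter on dim probes, outlier spots kept or eBayes with trend and robust. The ratio of the dimmer probe was 0.88 to 1.08 above that of the brighter on the 3 arrays that have both.

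Gsta4, which clears the lipid aldehyde 4-hydroxynonenal, was printed 10 times on each array. Its log2 signals were 11.59, 11.98, 11.08 and 11.95 in the livers labelled Plin2-ASO, against 12.46, 11.77, 12.22 and 11.48 in the control livers, with overlap. The ratios were -0.86, 0.21, -1.13 and 0.47, with a mean of -0.33 ± 0.28 (SE, n = 4, limma adjusted p = 0.498). Over the 10 spots of 1 array the SD was at most 0.11, whereas over the 4 arrays it was 0.79. Spots of 1 array share their RNA, labelling and normalization, so the first of these SDs holds spot noise only. On array 3 the software marked all but 2 of these spots as outliers, and the mean over all 10 was -1.10, against -1.13 for the 2.

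Gstp1, the pi class enzyme, again differed by probe. The brighter probe had log2 signals of 17.49, 16.95, 18.02 and 17.07 in the livers labelled Plin2-ASO, against 17.20, 17.14, 17.67 and 17.59 in the control livers, with overlap. Its mean log2 ratio was -0.02 ± 0.18 (SE, n = 4, limma adjusted p = 0.964), and its sign turned under 7 of 18 settings. The dimmer probe had 17.51, 16.63, 17.50 and 16.99 in the livers labelled Plin2-ASO, against 16.31, 16.15, 16.50 and 16.32 in the control livers. On that probe all the livers labelled Plin2-ASO were higher. It rose 1.78-fold, with ratios of 1.20, 0.47, 1.00 and 0.67 and a mean of 0.84 ± 0.16 (SE, n = 4, limma adjusted p = 0.0203 over all kept probes). This call ended without array 1 or 2 (limma adjusted p = 0.144 and 0.0666). Both probes were higher on arrays 1 and 3 than on arrays 2 and 4.

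**Figure D3:**
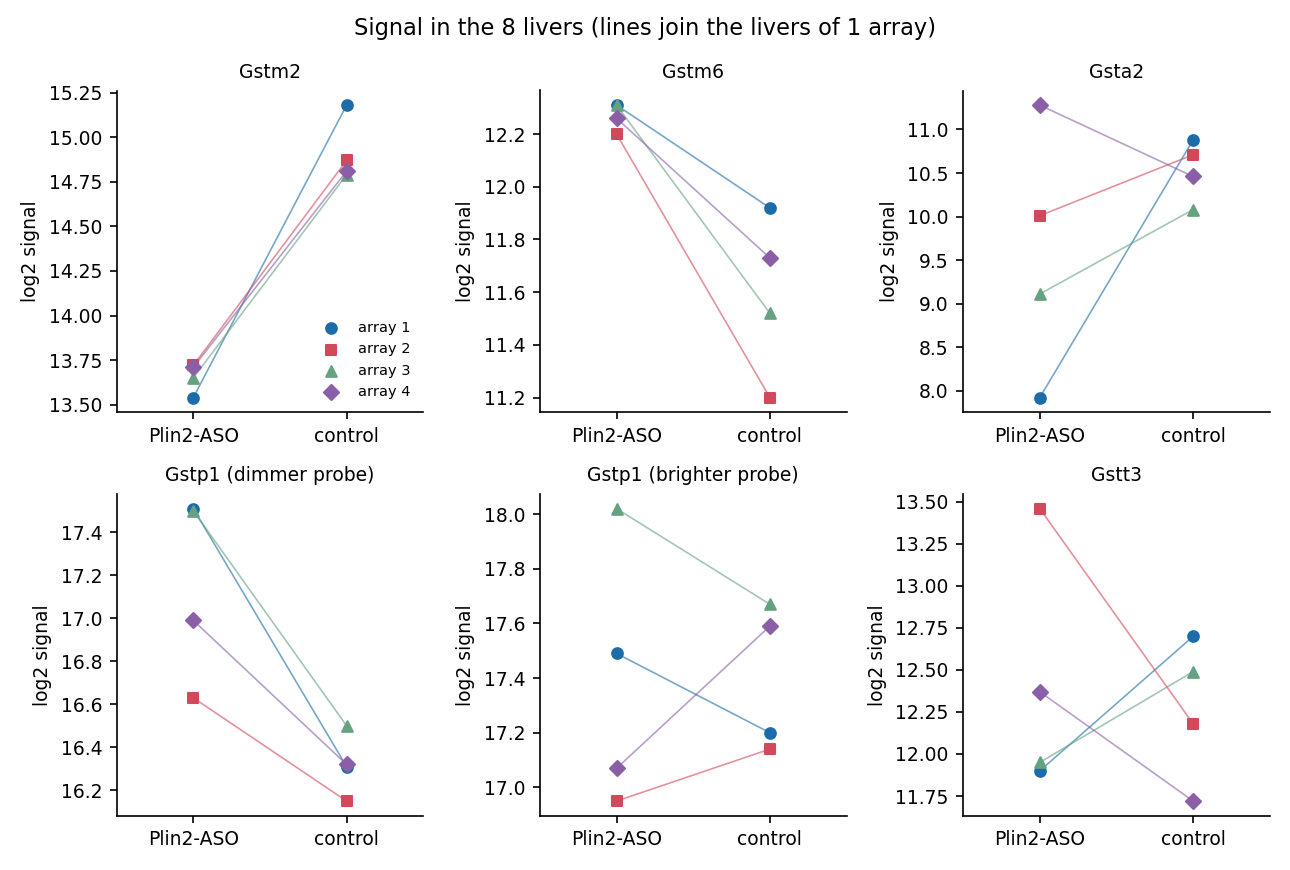
Log2 signal (y axis) of 6 probes in the 4 livers labelled Plin2-ASO (left in each panel) and the 4 control livers (right), with lines joining the livers of 1 array and a separate scale in each panel. The groups do not overlap for Gstm2, Gstm6 and the dimmer Gstp1 probe, and overlap for Gsta2, the brighter Gstp1 probe and Gstt3.

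The theta class enzymes act on small halogenated compounds. Gstt1 was higher on 3 of 4 arrays, with log2 signals of 12.17, 12.78, 12.17 and 12.25 in the livers labelled Plin2-ASO, against 12.31, 11.77, 11.85 and 11.60 in the control livers. The groups overlapped, and the mean log2 ratio of 0.46 ± 0.20 did not pass (SE, n = 4, 95% interval -0.01 to 0.93, limma adjusted p = 0.19). Gstt3 had 11.90, 13.46, 11.95 and 12.37 in the livers labelled Plin2-ASO, against 12.70, 12.18, 12.49 and 11.72 in the control livers, with overlap. Its ratios of -0.81, 1.28, -0.54 and 0.65 averaged 0.14 ± 0.34 (SE, n = 4, limma adjusted p = 0.827).

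Several members put the arrays in the same order. Of the 9 members measured on all arrays, 6 (Gsta2, Gsta4, Gstm1, Gstm3, Gstt1 and Gstt3) had higher ratios on both arrays 2 and 4 than on arrays 1 and 3, an order that 20.4% of all genes measured on all arrays had. The reverse order held for 1 member, Gstp1, and for 23% of all genes. These orders were not among the planned results. Another pattern, the lowest ratio on array 1, held for 6 of the 9 members, 8 of 13 other glutathione transferases and 16.5% of all genes. In the same 4 pairs of livers, the order with arrays 2 and 4 on top held for 6 of 13 other glutathione transferases (1 had the reverse order), 6 of 24 genes of glutathione synthesis and use (5 reverse) and 9 of 26 NRF2 targets (2 reverse). It held for 6 of 15 xenobiotic receptors and targets (0 reverse), 2 of 7 exporters of glutathione conjugates (2 reverse), 2 of 12 pericentral genes (0 reverse) and 3 of 11 periportal genes (3 reverse). Among sex-biased liver genes it held for 8 of 12 female-biased genes (1 reverse) and 0 of 12 male-biased genes (8 reverse). The median raw signals of the dye channels were 312, 369, 230 and 468 in the livers labelled Plin2-ASO on arrays 1 to 4, against 354, 243, 596 and 244 in the control livers. The channel of the livers labelled Plin2-ASO was the brighter on arrays 2 and 4 and the dimmer on arrays 1 and 3, and the part of this in the orders was not tested. These orders describe 4 pairs of mice, and genes are not independent replicates. Ratios had the same sign on all 4 arrays in 3 of the 9 members, against 34.3% of all genes. The livers labelled Plin2-ASO had the wider spread in 7 of the 12 member probes measured on every array, against 55% of all such probes.

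The rest of the glutathione system was compared in the same fit, in which 4858 of all 18041 genes had an unadjusted p under 0.05 by limma. Of 13 other glutathione transferases tested, Gsta1 rose and 0 fell by limma (2 with an unadjusted p under 0.05), with a median log2 ratio of -0.11. Without array 3, 2 of them rose and 4 fell, where 12.4% of all genes rose and 20.3% fell. Without array 4, 0 rose and 1 fell, against 2.14% and 3.43% of all genes. Besides Gsta1, the gene of the 13 with an unadjusted p under 0.05 on all arrays was the microsomal Mgst3, at -1.22 ± 0.34 (SE, n = 4, limma adjusted p = 0.0684). The probe of Gstp3, another pi class gene, was at -0.67 ± 0.21 (SE, n = 4, limma adjusted p = 0.0923). Of 27 genes that make, recycle or use glutathione, 1 rose, Glo1, which detoxifies methylglyoxal (0.65 ± 0.13, SE, n = 4, limma adjusted p = 0.0251), and 0 fell (9 with an unadjusted p under 0.05). No gene of that list rose without array 1, 2 or 4, where 0.804%, 0.903% and 2.14% of all genes rose. In the same list 5 rose and 5 fell without array 3, where 12.4% of all genes rose and 20.3% fell.

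**Figure D4:**
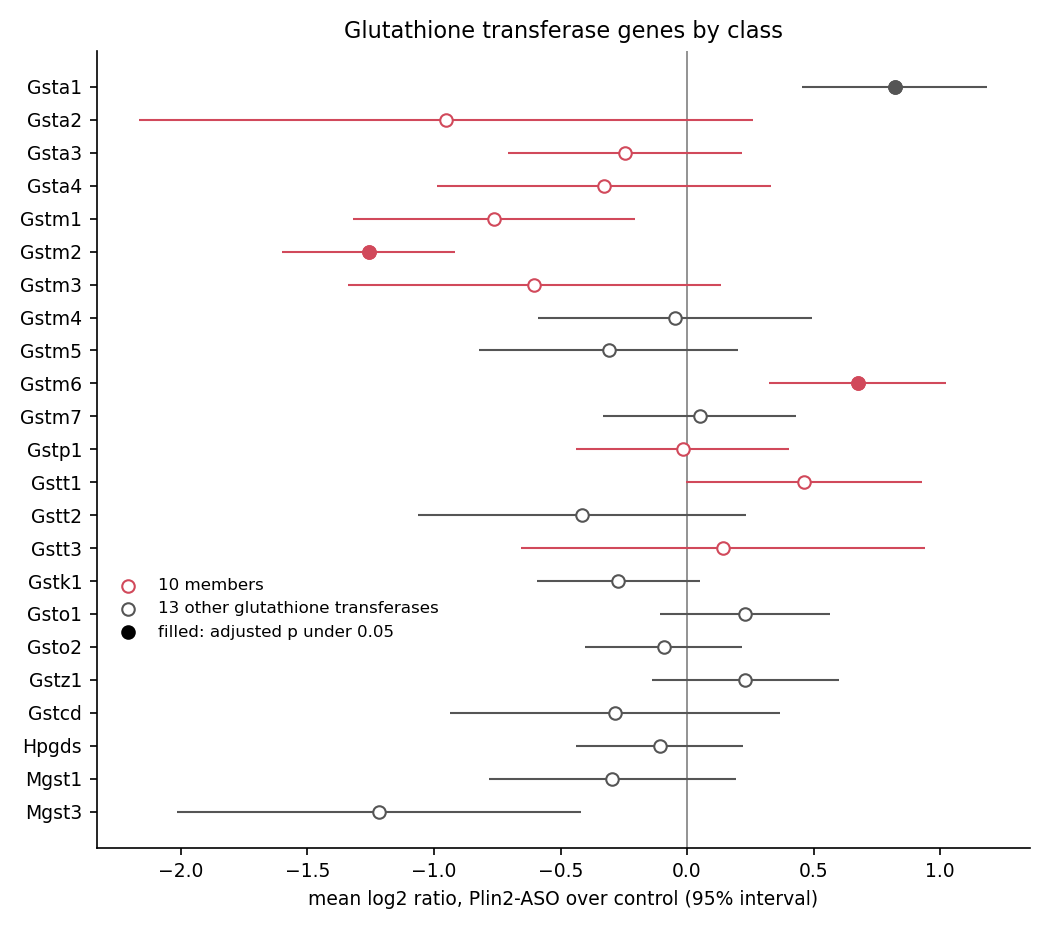
Mean log2 ratio of livers labelled Plin2-ASO over control livers with its 95% interval from limma (x axis) for the 10 members and 13 other glutathione transferases (y axis, by class), with filled symbols for an adjusted p under 0.05. Gsta1 at 0.82 and Gstm6 at 0.67 were higher and Gstm2 at -1.26 was lower.

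Among 29 NRF2 targets other than glutathione transferases, 2 rose and 4 fell, and their median was -0.08. The ferritin heavy chain gene Fth1 was lower (-0.79 ± 0.14), while the oxidase Aox1 (0.81 ± 0.14) and Srxn1, which repairs peroxiredoxins (0.92 ± 0.16), were higher (SE, n = 4; limma adjusted p = 0.0152, 0.0153 and 0.0175). None of the 29 passed in either direction without array 1 or without array 2, where 0.804% and 0.903% of all genes rose and 1.14% and 1.21% fell. Of 18 xenobiotic receptors and targets, Cyp2c29 and Cyp1a2 rose (1.49 ± 0.18 and 2.15 ± 0.27, n = 4 and 3) and Cyp3a11 fell (-1.23 ± 0.29, n = 4; limma adjusted p = 0.00513, 0.00829 and 0.0442), the last of these not without array 1, 2 or 4. No gene of that list fell with the deposited log10 ratios, the series table, no filter on dim probes, outlier spots kept or eBayes with trend and robust either. Without array 3, 6 of the 18 rose and 4 fell, where 12.4% of all genes rose and 20.3% fell. Cyp2b10, which is known to respond to foreign chemicals as several of the transferases do, read -1.21, 2.68, -0.13 and 1.16 on arrays 1 to 4 (limma adjusted p = 0.513). Of 8 exporters of glutathione conjugates, Abcg2 rose (0.96 ± 0.19, n = 4, limma adjusted p = 0.0267), and not without array 1 or 2, while 3 rose without array 3.

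Of 13 male-biased liver genes 9 rose and 0 fell, with a median log2 ratio of 2.68, and of 15 female-biased genes 6 fell and 0 rose, with a median of -0.88. Of 13 genes of the hepatocytes around the central vein 7 rose, and of 12 of those around the portal vein 3 rose, while 0 fell in either list by limma. An unadjusted p under 0.05 in either direction was found for 10 and 6 of these genes, and for 4858 of all 18041 genes tested. The part of sex-biased or zonal genes in the values of the transferases was not tested. The male-biased median was 3.87, 2.84, 3.93 and 1.54 on arrays 1 to 4, and the female-biased median -1.92, -0.29, -1.53 and -0.47. The members' median was -0.86, -0.12, -0.76 and 0.50 on the same arrays.

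By the likeness of their ratios over the 4 arrays, among 16073 genes measured on all of them, the genes nearest to Gstm2 were Mpp1 and Comtd1, with root mean square differences of 0.12 and 0.13 on the log2 scale. The nearest to Gstm6 were Taf2 and Btrc, at 0.07 and 0.08. With 4 arrays such closeness is a description of these values.

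RefSeq promoters of 300 bases (250 before and 50 after the start, assembly GRCm38.p6) were available for 9 of the 10 genes, as 13 start sites. The core of the antioxidant response element, through which NRF2 acts, was searched as TGACNNNGC on both strands. It was found in 1 of the 13, that of Gsta3, and in 12.4% of all promoters of that length. The core of the xenobiotic response element, GCGTG, was found in 4 of the 13 (genes Gsta2, Gstm1 and Gstp1), and in 32.4% of all promoters. Sequence outside these windows was not searched, so a member without a core here may hold one farther from its start.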

How the data were processed

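Liver RNA was amplified, labelled and hybridised to 4 Agilent arrays of 2 colours with 45018 spots, 1639 of them controls, per the labels' protocols. The spot intensities were extracted by the authors with Feature Extraction 9.5.1.1, per the file headers, and the mean signal and median local background were used. The deposited log10 ratios give Cy5 over Cy3, per the file headers, with background and dye corrections made by that software. The log2 ratios of the authors' deposited series table equalled those log10 ratios times the log2 of 10 for the 40929 probes of 1 spot (largest difference 6.22e-15), so both served as alternatives only, with the sign turned to livers labelled Plin2-ASO over control livers.

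The normexp method with an offset of 50 removed background, and loess normalized each array, control spots having weight 0 (limma 3.58.1, R 4.3.3, statmod 1.5.0, data.table in version 1.17.8, jsonlite 2.0.0). Outlier spots of either channel were left out, and a probe's remaining spots averaged. Probes were kept if well above background on at least 3 arrays in 1 channel (27160 probes), and the brightest kept probe measured on at least 3 arrays stood for a gene. Channel signals were put on 1 scale with Aquantile. The mean log2 ratio was tested against 0 by lmFit and eBayes (two-sided, 7.21 total degrees of freedom for genes on all 4 arrays and 6.21 for those on 3), with Benjamini-Hochberg adjustment over all 18041 genes or, for single probes, over the 25843 kept probes measured on at least 3 arrays. The script was tested on simulated data. Tables and figures were made in Python 3.11.15 with pandas 2.3.3, numpy 2.4.6 and matplotlib 3.10.9.

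Each array is 1 pair of mice and 1 replicate. The p-values and SEs rest on the spread between 4 pairs, drawn by eBayes toward that of all genes, and precision is limited by the number of pairs. The ratio pairs the livers of an array by construction. Symbols were updated through the RefSeq table of assembly GRCm38.p6, and no other probe took a member's symbol; positions are those of the files in build mm7. The members and the gene lists were chosen with earlier results of these data known. Named were all members, Plin2, the genes of a list with the smallest p past the threshold as far as they bear on the transferases, and the 2 genes nearest in ratio to each member that passed. Alb, Mgst3, Gstp3, Gstm4, Gstm5, Gstm7 and Cyp2b10 were singled out after their values were seen.

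The alternatives tried were uncorrected background, normexp with an offset of 16, centring on the median in place of loess, ratios from the log10 column or from the series table, scaled arrays, a strict filter on dim probes or none, the mean of all kept probes, outlier spots kept, the channels as independent samples (no replicate block), eBayes with trend and robust, array weights, an adjusted p under 0.1, and each array left out. The same alternatives on the probe fit, other than no filter, the mean of probes and independent channels, were added after the data were seen.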

Additional observations from a re-analysis of the deposited data

Results flagged for a closer look

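The Gstm2 log2 ratio of -1.64 on array 1 lay farther from the other arrays (-1.15, -1.14 and -1.10) than expected for 4 values by Dixon's test at 95%. The control liver of that array had the highest Gstm2 signal, 15.18, and the liver labelled Plin2-ASO the lowest, 13.54. By chance this test marks about 1 in 20 groups, and 12 probes were tested.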

How the results depend on the processing

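Gstm2 fell under all 18 alternatives, with a mean log2 ratio between -1.38 and -1.13 and adjusted p from 2.43e-05 to 0.0381. The number of members that rose was 0 with median centring, 0 with the deposited log10 ratios, 0 with the series table, and 0 to 1 when each array was left out, since Gstm6 was lost under these 6 settings (adjusted p = 0.0569, 0.0581 and 0.0695, and 0.125, 0.205 and 0.0762 without arrays 1, 2 and 4). The number that fell was 4 with array weights, where Gsta2, Gstm1 and Gstm3 passed, and 2 at an adjusted p under 0.1, where Gstm1 did; over all genes 23.5% fell and 15.6% rose with array weights, and 9.98% fell and 6.65% rose at an adjusted p under 0.1. Array weights gave array 3 a weight of 0.22. With the channels as independent samples, without the replicate block of the array, 1 member rose and 1 fell. Of single probes, 1 rose with median centring, 2 with an offset of 16, either deposited ratio, a strict filter, outlier spots kept or eBayes with trend and robust, and 0 to 3 when each array was left out, while 4 fell with array weights and 2 at an adjusted p under 0.1. The settings of the probe fit were chosen after seeing the data. Calls over all genes moved as well. The share that rose was 2.56% to 3.78% from median centring to eBayes with trend and robust, and 0.804% to 12.4% when each array was left out.

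Signs turned for means near 0. Gsta3 was at 0.31 with the mean of all kept probes. Gstp1 was at 0.01 with an offset of 16, 0.15 with the deposited log10 ratios, 0.15 with the series table, 0.41 with the mean of all kept probes and 0.02 with array weights, and from -0.14 to 0.15 when each array was left out. Gstt3 ran from -0.24 to 0.46 when each array was left out. Gsta2, Gsta4, Gstm1, Gstm3 and Gstt1 kept their sign throughout. The cause of these changes was not tested.

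Counts in the lists were small and moved too. Over the settings, leave-outs aside, 0 to 2 other glutathione transferases rose and 0 to 4 fell, 0 to 6 genes of glutathione synthesis and use rose and 0 to 6 fell, and 1 to 5 NRF2 targets rose and 1 to 11 fell. The male-biased genes that rose numbered 8 to 13, and 7 to 12 when each array was left out, and the female-biased genes that fell 4 to 9 and 4 to 8. Over all genes, 0.804% rose and 1.14% fell without array 1, and 12.4% rose and 20.3% fell without array 3. With 4 arrays and no dye swap, a shared dye effect cannot be measured.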
